A study of Mus musculus with 8 samples.

Results

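The EGF family ligands and the ERBB receptors they bind were followed in 6 mouse crypt libraries through 10 genes. They are the ligands Areg, Ereg, Hbegf, Tgfa and Btc, the receptors Egfr, Erbb2 and Erbb3, and the inhibitors Lrig1 and Errfi1. These genes were taken by symbol from a table of 16958 genes with values, and all 10 were found. Crypts are the pits of the intestinal lining that hold stem cells and Paneth cells. The study deleted Setdb1, a methyltransferase of lysine on histone H3, and its title speaks of stem cell necroptosis and bowel inflammation.

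The control library, WT, is of C57BL/6 strain, genotype setdb1fl/fl and age 8 weeks. The other 5 crypt libraries, VEMD2, VEMD3, VEMD4, VEMD6 and VEMD8, came from C57BL/6 mice of the same age with the genotype setdb1 iIEC-KO. In these the recombinase CreERT2 is driven by the Villin promoter, which is active in intestinal epithelium and not in the cells around it. Per the labels, 1 dose of tamoxifen, which switches CreERT2 on, was given by gavage at 800 mg/kg to knockout mice and to WT littermates alike. The labels do not spell out VEMD, and the number in a library's name is used here as a name alone. Each group holds 1 library, and how many mice each library stands for is not stated, so no difference was tested, and higher or lower speaks of 1 library beside another. A further 2 libraries of sorted stem cells belong to the series, and their gene values were not analysed here.

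EGF family ligands are made as membrane proteins and are cut free by ADAM proteases. Areg, Tgfa and EGF bind EGFR, while heparin-binding EGF (Hbegf), betacellulin (Btc) and epiregulin (Ereg) can bind ERBB4 as well. ERBB2 has no ligand of its own and pairs with the other receptors, and ERBB3 has little kinase activity and signals through its partners. In the crypt this pathway drives stem cell division through the kinases RAF, MEK and ERK and through PI3K. LRIG1 lowers the amount of ERBB receptors at the membrane, and ERRFI1, also called MIG6, binds the kinase domain of EGFR and blocks it.

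Areg, Ereg and Btc lie near one another on mouse chromosome 5 and were higher than WT in every knockout library. Of these 3 the promoters of Areg and Btc are shown, as none was found for Ereg. Tgfa, which lies elsewhere, was also slightly higher than WT in every knockout library, and its promoter is not shown. A promoter of Errfi1 is shown because it shares a motif with that of Areg, and was chosen after the matches were seen. Its start lies within an intron of the longer Errfi1 transcript. Each sequence holds the 250 bases before a RefSeq transcription start on GRCm38.p6, read 5′ to 3′ on the gene's strand. The sites are chr5:91139349-91139598 on the plus strand for Areg, chr5:91402995-91403244 on the minus strand for Btc and chr4:150854820-150855069 on the plus strand for Errfi1. Capitals mark matches to the motifs searched.
Areg: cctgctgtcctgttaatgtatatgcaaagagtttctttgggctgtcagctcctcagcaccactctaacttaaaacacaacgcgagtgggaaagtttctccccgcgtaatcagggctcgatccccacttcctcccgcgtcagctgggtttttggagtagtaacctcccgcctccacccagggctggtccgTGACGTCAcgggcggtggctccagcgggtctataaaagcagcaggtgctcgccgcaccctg
Btc: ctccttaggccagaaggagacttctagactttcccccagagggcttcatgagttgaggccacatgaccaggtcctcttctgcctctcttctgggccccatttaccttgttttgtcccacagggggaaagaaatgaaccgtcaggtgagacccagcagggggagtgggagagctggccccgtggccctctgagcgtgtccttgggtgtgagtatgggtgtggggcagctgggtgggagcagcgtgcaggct
Errfi1: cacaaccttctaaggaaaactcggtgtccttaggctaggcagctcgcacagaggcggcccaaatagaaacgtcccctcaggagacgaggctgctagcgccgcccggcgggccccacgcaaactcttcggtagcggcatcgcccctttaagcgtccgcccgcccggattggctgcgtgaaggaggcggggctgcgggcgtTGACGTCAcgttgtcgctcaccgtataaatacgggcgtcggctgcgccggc
The motifs searched on both strands were the cyclic AMP response element TGACGTCA (CRE), the AP-1 site TGANTCA and the TEAD site GGAATG. No match of one overlapped a match of another. The CRE was found once before Areg, at position -61 from the start, and once before this start of Errfi1, at position -51. It stands in 1.55% of all 32851 promoters of that length, against 6.75% for AP-1 and 12.6% for TEAD. The AP-1 letters were in none of the members' windows. TEAD letters were found once before Erbb2, at -88, and once before another start of Errfi1, at -65. None of the 3 motifs was in the windows of Btc, Tgfa, Egfr or Lrig1. A match describes these letters and shows no binding, and Ereg, Hbegf and Erbb3 were not matched in the promoter table.

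Levels are FPKM, fragment counts scaled by gene length and library depth, which allows comparison between genes. Where all 6 libraries are listed, they run from the highest to the lowest. Whole fragments left steps in the low values of genes with 1 transcript, and these steps gave an estimated depth of 16300000 to 17300000 fragments per library. Between 75.2% and 78.2% of such values lay within 0.2 of a whole fragment, where values without steps would give 40%. From this depth and the transcript length, 95% exact Poisson intervals were set around each level. They cover counting error only and not the spread between mice. Setdb1 itself, read over all of its exons together, had 9.42 FPKM in WT, 7.03 in VEMD3, 6.64 in VEMD2, 5.49 in VEMD4, 4.95 in VEMD8 and 3.53 in VEMD6, so WT was highest. A log2 ratio was taken after 1 FPKM was added to both values, and a gene counted as higher or lower at a ratio of at least 2-fold. The median ratio of the 10862 genes whose mean reached 1 FPKM was -0.23 in VEMD6, 0.12 in VEMD3 and between -0.06 and 0.09 in the others. After rescaling to that median, the numbers of higher and lower genes went from 265 and 260 to 199 and 316 in VEMD2, from 652 and 503 to 499 and 638 in VEMD3, and from 547 and 885 to 842 and 453 in VEMD6. Rescaling to the same summed FPKM took them from 772 and 547 to 1006 and 401 in VEMD4, and from 474 and 566 to 730 and 378 in VEMD8. All 10 members passed the filter on the mean. Ereg was under 1 FPKM in WT and passed through the knockout libraries alone.

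Among the members, Areg and Ereg were at least 2-fold above WT in all 5 knockout libraries, Btc, Egfr and Errfi1 in at least 1 and the other 5 in none. The ligand Hbegf was below WT in 4 of the 5, a direction that turned in VEMD6 after rescaling, and no member was 2-fold lower in any knockout library. In VEMD2, 2 of 10 members were at least 2-fold higher, Areg and Ereg, against 2.44% of all genes, while 2.39% of all genes were 2-fold lower. Btc joined them in VEMD3, giving 3 members against 6% of all genes higher and 4.63% lower. VEMD4 had 5, namely Areg, Ereg, Btc, Egfr and Errfi1, against 7.11% higher and 5.04% lower. VEMD6 and VEMD8 had 3 each, Areg, Ereg and Errfi1, against 5.04% higher and 8.15% lower in VEMD6 and 4.36% higher and 5.21% lower in VEMD8. Areg and Ereg passed in all 5 knockout libraries, as did 0.571% of all genes, and 0.626% of all genes were lower in all 5. The 5 ratios share the WT library. Because the members were chosen with earlier results of these data known, the shares of all genes beside them are no test. The median ratio of the members was 0.28, 0.65, 0.99, 0.25 and 0.11 from VEMD2 to VEMD8, and that of all genes was 0.09, 0.12, 0.03, -0.23 and -0.06.

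Areg encodes amphiregulin, a ligand of EGFR known from wound repair and regeneration. It lies on chromosome 5 from 91139599 to 91148432 on GRCm38. Its level was 121 FPKM in VEMD6, 99.0 in VEMD4, 65.8 in VEMD3, 64.2 in VEMD8, 39.8 in VEMD2 and 12.5 in WT. Every knockout library was above WT, and VEMD6 was highest. The counting interval of WT ran from 11.0 to 14.1 FPKM and that of VEMD2, the next in order, from 37.1 to 42.6. Of the neighbours in this order, only VEMD8 and VEMD3 had intervals that overlapped. The fold over WT, without a pseudocount, was 3.18 in VEMD2, with a counting interval of 2.77 to 3.67, and 9.72 in VEMD6, with one of 8.56 to 11.1.

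Ereg encodes epiregulin and lies at 91074617 to 91093649 on the same chromosome. It was at 7.58 FPKM in VEMD4, 6.04 in VEMD6, 5.83 in VEMD3, 3.93 in VEMD2, 2.66 in VEMD8 and 0.52 in WT. All knockout libraries were above WT, and VEMD4 was highest and VEMD8 lowest among them. The WT value stands for an estimated 37 fragments and has a counting interval of 0.365 to 0.715 FPKM. Its fold over WT was 14.6 in VEMD4, with a counting interval of 10.5 to 20.99, and 5.11 in VEMD8, with one of 3.57 to 7.50. The intervals of VEMD3 and VEMD6 overlapped, and those of the other neighbours in the order did not. On its antisense strand Gm19610 overlaps 141 of 4128 exonic bases of Ereg, and the strand used in counting is not given in the sources used here. Such overlaps also touch 118 exonic bases of Tgfa, 144 of Lrig1 and 9 of Erbb2. In FPKM, Areg was 24.0 times as high as Ereg in WT and 24.2 times in VEMD8, against 20.1 times in VEMD6, 13.1 in VEMD4, 11.3 in VEMD3 and 10.1 in VEMD2. Without a pseudocount the fold of Ereg was thus above that of Areg in VEMD2, VEMD3, VEMD4 and VEMD6, with counting intervals that overlapped in VEMD6, and the pair stood in nearly the WT proportion in VEMD8.

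**Figure D1:**
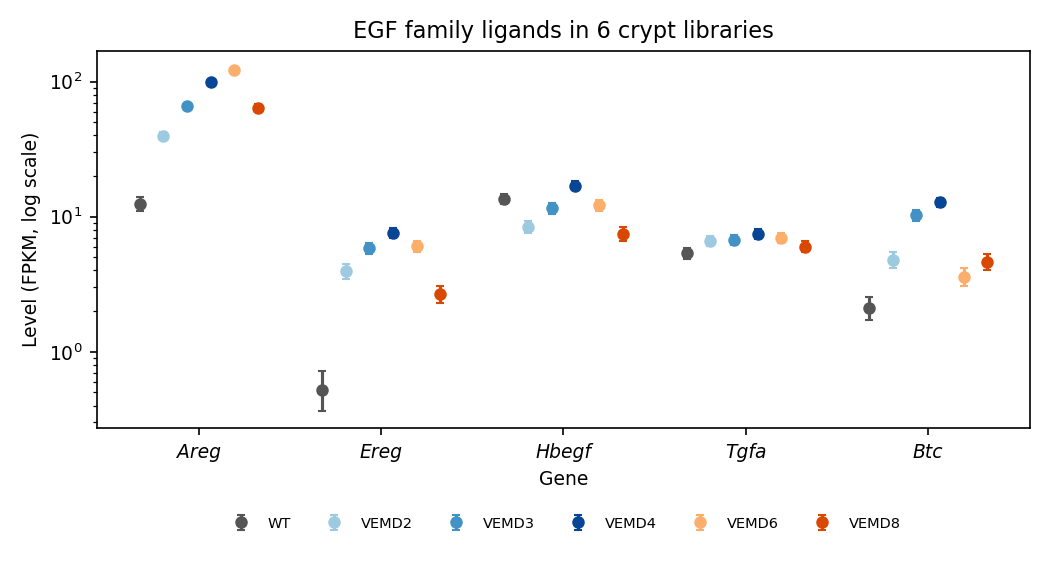
Levels of the 5 ligands in FPKM on a log axis, 1 point per crypt library, with 95% exact Poisson intervals for counting error. Areg and Ereg are above WT in all 5 knockout libraries, Btc is highest in VEMD3 and VEMD4 at 10.2 and 12.8, and Tgfa stays between 5.37 and 7.48.

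Btc encodes betacellulin, at 91357261 to 91402994 on chromosome 5. It was at 12.8 FPKM in VEMD4, 10.2 in VEMD3, 4.78 in VEMD2, 4.63 in VEMD8, 3.57 in VEMD6 and 2.1 in WT. All 5 knockout libraries were above WT, but VEMD3 and VEMD4 were far above the other 3. In VEMD4 it was 6.08 times the WT level, with a counting interval of 4.94 to 7.58, and in VEMD6 it was 1.70 times, with one of 1.33 to 2.19. Areg had its highest level in VEMD6, where Btc had its lowest of the knockout libraries. In VEMD2 and VEMD8 Btc missed the 2-fold rule, with log2 ratios of 0.90 and 0.86, and with a pseudocount of 0.1 FPKM it passed, at 1.15 and 1.10.

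Tgfa encodes transforming growth factor alpha and lies on chromosome 6 from 86195038 to 86275744. It was at 7.48 FPKM in VEMD4, 6.95 in VEMD6, 6.72 in VEMD3, 6.63 in VEMD2, 5.99 in VEMD8 and 5.37 in WT. The knockout libraries were all slightly above WT, and the counting intervals of all neighbours in the order overlapped. The largest fold was 1.39 in VEMD4, with a counting interval of 1.22 to 1.58, and the highest level was 1.39 times the lowest. Tgfa had the narrowest range of the 10 genes. Hbegf, which encodes the heparin-binding ligand, was at 17.0 FPKM in VEMD4, 13.5 in WT, 12.2 in VEMD6, 11.6 in VEMD3, 8.39 in VEMD2 and 7.44 in VEMD8. It was lower than WT in VEMD2 and VEMD8, at 0.623 and 0.552 of its level, and higher in VEMD4, at 1.26 times. The log2 ratio of Hbegf in VEMD6 was -0.14 as deposited and 0.10 after rescaling to the median gene, so its direction there is uncertain.

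The summed level of the 5 ligands was 150.2 FPKM in VEMD6, 143.8 in VEMD4, 100.2 in VEMD3, 85.0 in VEMD8, 63.5 in VEMD2 and 34.0 in WT. In WT Hbegf held the largest share, 39.7%, with Areg at 36.8% and Ereg at 1.53%. Areg held the largest share in every knockout library, from 62.6% in VEMD2 to 80.9% in VEMD6. The share of Hbegf was 13.2% in VEMD2 and 8.09% in VEMD6, and that of Tgfa went from 15.8% in WT to 4.63% in VEMD6. Btc held 10.2% in VEMD3 and 2.38% in VEMD6. The sums of VEMD4 and VEMD6 were close, yet that of VEMD6 held more Areg and less Btc. These are shares of RNA, and in tissue libraries fewer cells of a type and less RNA per cell cannot be told apart.

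**Figure D2:**
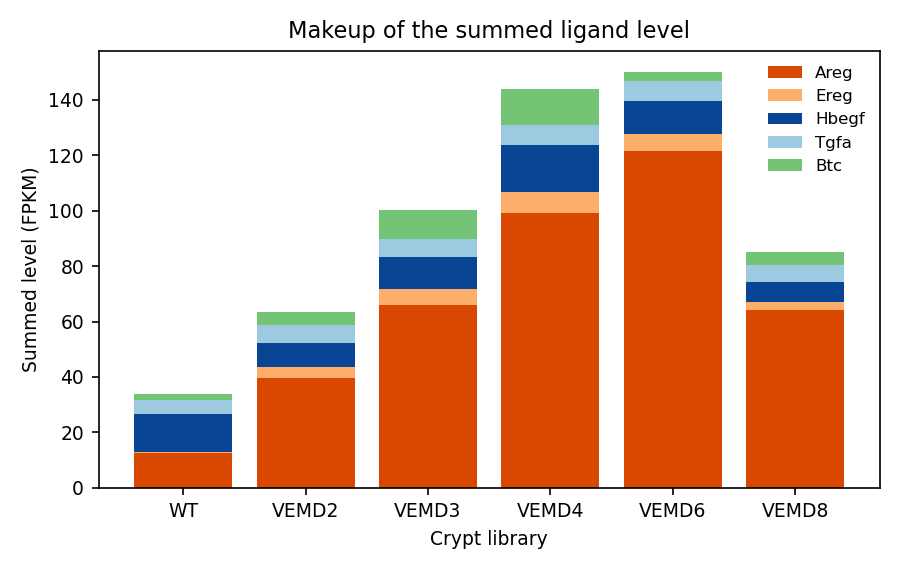
Summed FPKM of the 5 ligands in each crypt library, with the bar divided by ligand. The bar of WT reaches 34.0 and that of VEMD6 150.2, and Areg fills 36.8% of the first and 80.9% of the second.

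Other ligands of the family were near the limit of detection. Of Egf, Epgn, Nrg1, Nrg2, Nrg3 and Nrg4, none reached a mean of 1 FPKM. Nrg4, a neuregulin that binds ERBB4, was highest, at 1.22 FPKM in VEMD3 against 0.61 in WT. Egf, which Paneth cells are known to make, was at 0.54 in VEMD2, 0.39 in WT, 0.28 in VEMD3, 0.14 in VEMD8, 0.13 in VEMD4 and 0.09 in VEMD6. Of 10 Paneth cell markers, 8, 10 and 9 were at least 2-fold lower in VEMD4, VEMD6 and VEMD8, with summed levels of 8615, 2400 and 3704 FPKM against 30700 in WT, and their part in the Egf values was not tested. Nrg1, a ligand of ERBB3 and ERBB4 made by stromal cells, was listed at 0 in WT, VEMD2 and VEMD6 and at 0.12 in VEMD8. The receptor gene Erbb4 has a line in the table that holds no values.

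The 3 receptors differed from each other, with Egfr highest in VEMD4 and Erbb2 below WT in every knockout library. Egfr, the receptor of Areg, Tgfa and EGF, lies on chromosome 11 from 16752203 to 16913907. It was at 15.8 FPKM in VEMD4, 8.64 in VEMD3, 5.56 in VEMD2, 4.87 in VEMD8, 4.56 in WT and 4.14 in VEMD6. VEMD4 stood alone above all others, VEMD3 came next, and the counting intervals of VEMD6, WT, VEMD8 and VEMD2 overlapped from neighbour to neighbour. In VEMD4 it was 3.47 times the WT level, with a counting interval of 2.99 to 4.04, and in VEMD6 0.908 times, with one of 0.746 to 1.10. Rescaling to the median gene took its log2 ratio in VEMD6 from -0.11 to 0.12. Egfr has a short annotated transcript of 2943 bases and a longer one, and its interval was computed for the short one, which gives the wider range.

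Erbb2, the receptor without a ligand, lies on chromosome 11 from 98412484 to 98437716. It was at 27.0 FPKM in WT, 20.5 in VEMD6, 19.4 in VEMD3, 18.7 in VEMD2, 17.2 in VEMD4 and 16.4 in VEMD8. All 5 knockout libraries were below WT, at 0.607 to 0.759 of its level. On the deposited scale the counting interval of WT, 25.9 to 28.1, lay above theirs. The log2 ratio of Erbb2 in VEMD6, -0.38, became -0.15 after rescaling to the median gene and -0.11 after rescaling to the same summed FPKM. No value passed the 2-fold rule, and Erbb2 was the only member below WT in every knockout library. Erbb3, on chromosome 10 from 128567523 to 128589635, was at 37.1 FPKM in VEMD6, 32.7 in WT, 28.5 in VEMD4, 28.2 in VEMD8, 23.2 in VEMD3 and 22.8 in VEMD2. VEMD2 and VEMD3 were lowest and VEMD6 was above WT. Its ratio in VEMD8, -0.21, turned to 0.04 when the libraries were rescaled to the same summed FPKM. Egfr made up 25.8% of the summed level of these 3 receptors in VEMD4 and 16.9% in VEMD3, against 7.09% in WT and 6.71% in VEMD6.

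**Figure D3:**
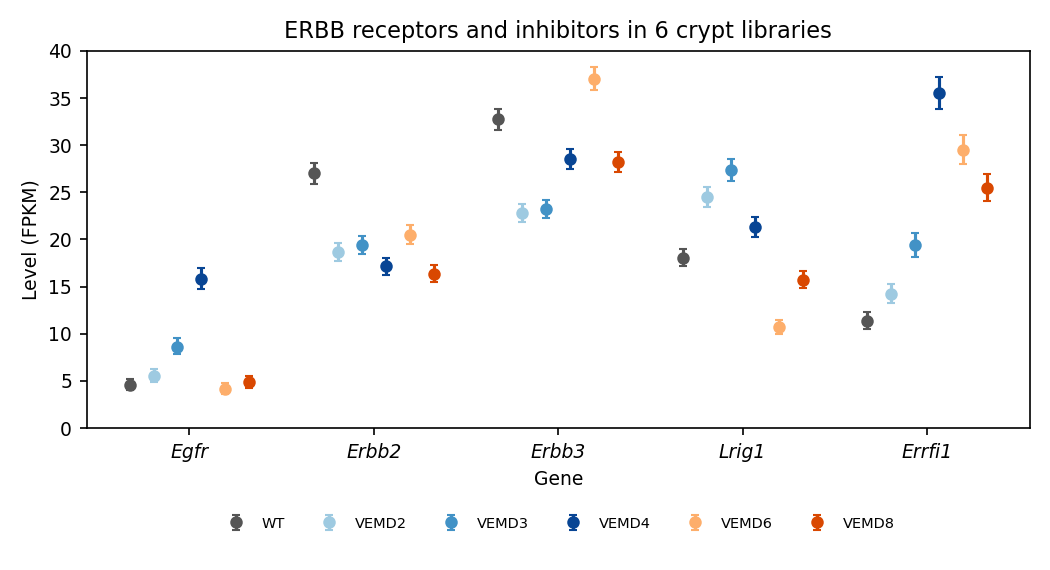
Levels in FPKM of the receptors Egfr, Erbb2 and Erbb3 and the inhibitors Lrig1 and Errfi1, 1 point per crypt library, with 95% exact Poisson intervals for counting error. Egfr is highest in VEMD4 at 15.8, Erbb2 is highest in WT at 27.0, Lrig1 is lowest in VEMD6 at 10.7 and Errfi1 is highest in VEMD4 at 35.5.

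The 2 inhibitors differed from each other. Errfi1, on chromosome 4 from 150853796 to 150868889, was at 35.5 FPKM in VEMD4, 29.5 in VEMD6, 25.5 in VEMD8, 19.4 in VEMD3, 14.2 in VEMD2 and 11.4 in WT. All knockout libraries were above WT and no neighbours in the order had overlapping counting intervals. Its fold over WT was 3.12 in VEMD4, with a counting interval of 2.84 to 3.43, and 2.24 in VEMD8, with one of 2.03 to 2.47. Lrig1, which also marks a group of intestinal stem cells, lies on chromosome 6 from 94604529 to 94700298. It was at 27.4 FPKM in VEMD3, 24.5 in VEMD2, 21.3 in VEMD4, 18.1 in WT, 15.7 in VEMD8 and 10.7 in VEMD6. VEMD2, VEMD3 and VEMD4 were above WT and VEMD6 was below it, at 0.592 of its level, with a counting interval of 0.544 to 0.644. In VEMD8 its log2 ratio was -0.19 and turned to 0.05 when the libraries were rescaled to the same summed FPKM. The median ratio of 8 other stem cell markers was 0.24, 0.21, -0.27, -1.07 and -0.62 from VEMD2 to VEMD8. In VEMD4 it was thus below 0, where the ratio of Lrig1 was 0.23. These markers were split, with Lgr5, Olfm4 and Smoc2 below WT in all 5 knockout libraries and Ascl2 and Rnf43 2-fold higher in VEMD3. The part of stem cell numbers in the Lrig1 values was not tested.

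VEMD8 was also set against VEMD2, which leaves WT out. No member was 2-fold apart in either direction, where 3.81% of all genes were higher and 4.23% lower. The largest differences on the log2 scale were 0.80 for Errfi1, at 25.5 against 14.2 FPKM, and 0.68 for Areg, at 64.2 against 39.8. Lrig1 had a ratio of -0.61 and Ereg one of -0.43. The median was -0.14 over the members and -0.16 over all genes.

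Genes downstream of ERK, the kinase at the end of the RAS pathway, held most of the pathway's other differences from WT. The list of 18 such genes, feedback inhibitors and targets, had 5, 7, 10, 5 and 6 members at least 2-fold higher from VEMD2 to VEMD8, beside 2.44%, 6%, 7.11%, 5.04% and 4.36% of all genes. Of these, Fosl1 and Spry4 were under 1 FPKM in WT and passed the filter through knockout libraries alone, and they make up 1, 2, 1 and 1 of the calls in VEMD3, VEMD4, VEMD6 and VEMD8. The medians of the list were 0.49, 0.63, 1.19, 0.61 and 0.51, beside the medians of all genes given above. Etv4, Egr1 and Phlda1 were 2-fold higher in all 5 knockout libraries, beside 0.571% of all genes. This list and the pathway's others were chosen with earlier results of these data known, so the shares beside them describe and test nothing. Etv4, a transcription factor of the ETS family, was at 16.4 FPKM in VEMD3, 15.1 in VEMD4, 12.1 in VEMD2, 6.75 in VEMD8, 5.47 in VEMD6 and 1.98 in WT. Phlda1, which marks epithelial stem cells and is induced by growth factors, was at 83.5 in VEMD4, 65.8 in VEMD8, 64.4 in VEMD6, 53.3 in VEMD3, 33.8 in VEMD2 and 13.5 in WT. Egr1, an immediate early transcription factor, was at 4.84 in WT and between 14.3 in VEMD6 and 26.9 in VEMD4. All 3 were above WT throughout, with Etv4 and Egr1 highest in VEMD3 or VEMD4.

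The remaining ERK genes differed between libraries. Of all 18 in the list, 11 were above WT in all 5 knockout libraries and 0 were below it in all 5. Dusp4 and Etv5 passed 2-fold higher in VEMD2, VEMD3 and VEMD4, and Dusp5 in VEMD4. Ier3 passed in VEMD3, VEMD4 and VEMD8, and Spry4 in VEMD4, VEMD6 and VEMD8. Fosl1, a subunit of AP-1, was listed at 0 in WT and at 0.54, 3.78, 5.34, 0.44 and 0.15 FPKM from VEMD2 to VEMD8. Its values in VEMD3 and VEMD4 stood well above the others. Dusp6, Myc, Ccnd1 and Fos are named because of their values. Dusp6, the phosphatase that turns ERK off, was at 88.1 FPKM in VEMD6, 87.0 in VEMD4, 52.7 in VEMD8, 32.0 in VEMD3, 24.0 in VEMD2 and 20.6 in WT. It was thus highest where Errfi1 and Areg were highest, in VEMD4 and VEMD6. As Dusp6 was picked for its values, this likeness is no separate result. Etv4 and Egr1 had their lowest knockout levels in VEMD6, at 5.47 and 14.3 FPKM. Myc and Ccnd1, which drive growth and the cell cycle, were the only genes of this list that were 2-fold lower in any library, with log2 ratios of -1.66 and -1.75 in VEMD6 and -1.23 and -1.62 in VEMD8. After rescaling to the same summed FPKM, 1 of them passed in VEMD8. Fos, an immediate early gene, had ratios from -0.58 in VEMD2 to 0.70 in VEMD6 and never passed 2-fold.

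**Figure D4:**
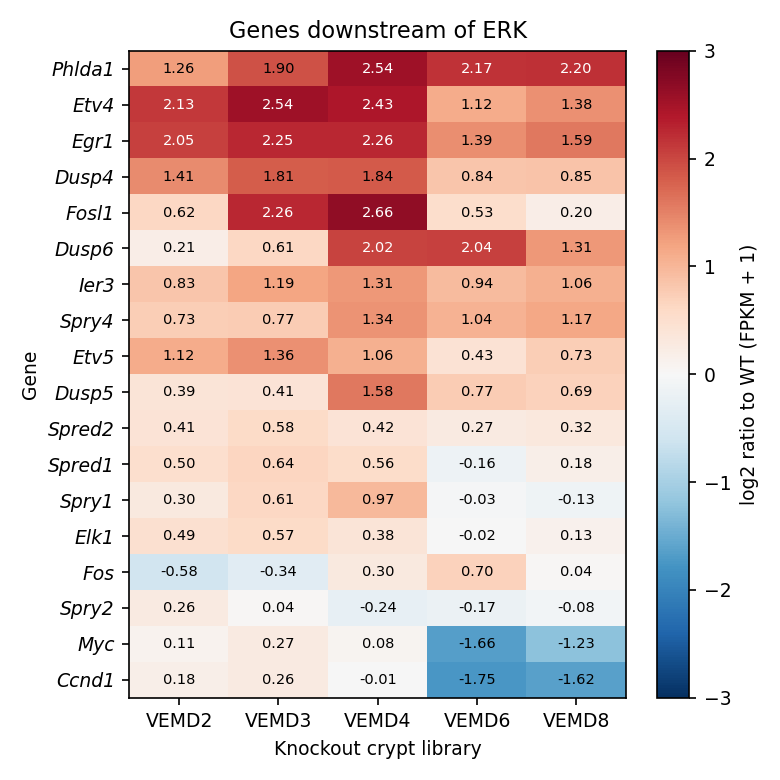
Log2 ratio to WT, after adding 1 FPKM, of 18 genes downstream of ERK in the 5 knockout crypt libraries, ordered by their mean ratio. Phlda1, Etv4 and Egr1 at the top are above 1 in all 5 columns, while Myc and Ccnd1 at the bottom are below -1 in VEMD6 and VEMD8.

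Upstream parts of the pathway differed less. All lists together, the ERK genes included, held 80 genes, of which 70 passed the filter. From VEMD2 to VEMD8, 5, 8, 11, 5 and 6 of these were 2-fold higher, against 0, 0, 1, 3 and 2 lower. The ERK genes made up 5, 7, 10, 5 and 6 of the higher calls, so the counts mostly repeat the ERK result. As shares of the 70, 7.14%, 11.4%, 15.7%, 7.14% and 8.57% were higher from VEMD2 to VEMD8. Of all genes, 2.44%, 6%, 7.11%, 5.04% and 4.36% were higher, and 2.39%, 4.63%, 5.04%, 8.15% and 5.21% lower. In VEMD6 the 7.14% higher lies near the 5.04% of all genes, and the 4.29% lower there is under the 8.15% of all genes. After rescaling to the median gene, VEMD6 had 8 higher and 2 lower and VEMD3 had 8 higher and 2 lower. On the deposited scale none of 20 adaptor, RAS and MAPK genes was 2-fold from WT in any library, the furthest being the adaptor Gab1, at -0.98 in VEMD8, and Mapk3, which encodes ERK1, at -0.88 in VEMD3. Mapk3 was at 177.6 FPKM in WT and 96.2 in VEMD3 and just passed there after rescaling to the median gene. Gab1 passed in VEMD8, at -1.36, with a pseudocount of 0.1 FPKM. None of 11 genes of receptor turnover passed either, and the largest ratio was 0.91 for the cytokine signalling suppressor Socs5 in VEMD3, which became 1.27 with a pseudocount of 0.1 FPKM. Among 15 genes of the PI3K, STAT and PLC branches only Pik3r1, the regulatory subunit of PI3K, passed, at 6.83 FPKM in VEMD4 and 8.04 in VEMD6 against 17.3 in WT, and the call in VEMD6 was lost after either rescaling. Among 6 genes of ligand shedding only Rhbdf1, a partner of the protease ADAM17, passed, at 10.8 FPKM in VEMD3 and 9.46 in VEMD4 against 3.53 in WT. Adam9, another protease of the list, passed in VEMD8, at 1.13, after rescaling to the same summed FPKM. Adam17 itself, which cuts Areg free, was at 10.9 in WT and between 12.9 in VEMD6 and 17.4 in VEMD3.

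Position on the chromosome was compared next, within 500 kb of Areg. Of 13 genes with values there, 7 passed the filter on the mean. Ereg lies at -46.0 kb from Areg and Btc at 208.8 kb, where a minus sign means a lower coordinate. Beyond Ereg, Mthfd2l, a mitochondrial folate enzyme at -118.2 kb, had ratios between -0.35 and 0.24. The ligand gene Epgn lies between Mthfd2l and Ereg and did not go over 0.21 FPKM. Cxcl1, a chemokine at -246.5 kb, was at 0.12 FPKM in WT and up to 2.96 in VEMD4, and passed the filter only through knockout libraries. Rassf6, at the far end, had ratios between -0.21 and 0.35. On the other side Parm1, a mucin-like membrane protein at 369.3 kb, was at 11.97 FPKM in VEMD8, 11.7 in VEMD4, 8.91 in VEMD3, 7.09 in VEMD2, 5.58 in VEMD6 and 3.12 in WT. Ereg, Areg, Btc and Parm1, next to each other among the tested genes, all passed 2-fold in VEMD3 and VEMD4. The window was set around Areg, and the calls of Ereg, Areg and Btc were known from the member counts. Those calls are therefore no new result about position. Cxcl1, which lies between Rassf6 and Mthfd2l, passed there too, with log2 ratios of 1.06 and 1.82, and in VEMD8 with 1.67. Mthfd2l and Rassf6 passed in no library. Of all genes, 6% were 2-fold higher in VEMD3 and 7.11% in VEMD4.

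**Figure D5:**
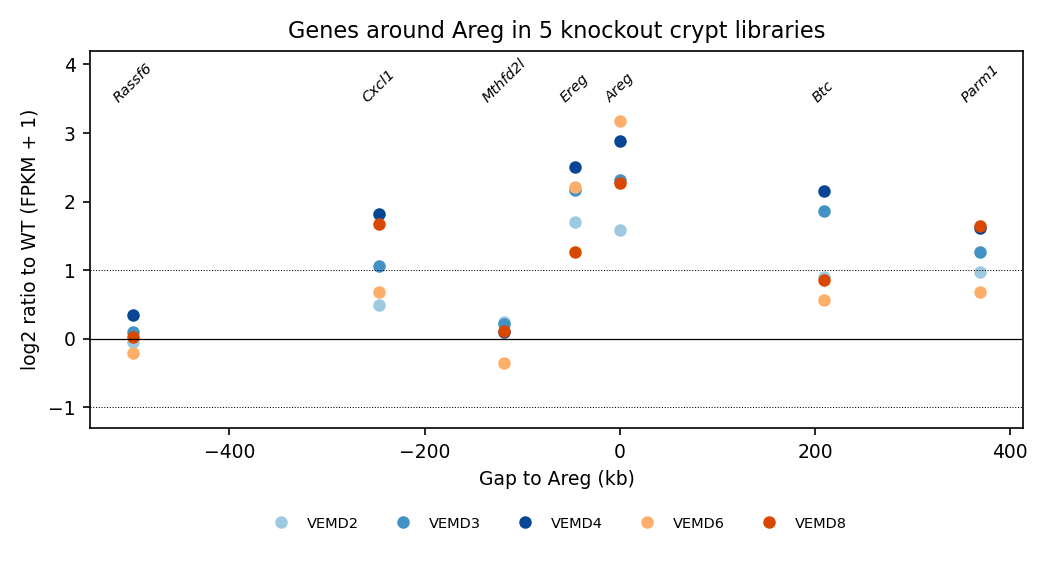
Log2 ratio to WT, after adding 1 FPKM, of the 7 tested genes within 500 kb of Areg, plotted by their gap to Areg in kb, 1 point per knockout crypt library, with dotted lines at 2-fold. Mthfd2l and Rassf6 lie near 0, while Ereg and Areg lie above 1 in every library.

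Genes with the pattern most like each ligand were found by the root mean square difference of the 5 log2 ratios, as a description that rests on 1 WT library. For Areg these were Csf2ra at 0.39, Tnfrsf23 at 0.44 and Gsn at 0.49. For Ereg they were Gsn at 0.26, Pmm1 at 0.35 and Lpcat4 at 0.40. Among the members, Areg and Ereg were 0.65 apart, and Erbb2 and Erbb3 were closest, at 0.38. Btc was most like Pik3r3 at 0.19, Bst2 at 0.22 and Nox1 at 0.23. Tgfa, with its flat pattern, was within 0.05 of Zbtb7a, Mark2 and Stim2. Hbegf was most like Naa80 at 0.15, Cd3g at 0.16 and Gzma at 0.17. Cd3g, a subunit of the T cell receptor complex, was at 8.28 FPKM in VEMD4, 6.41 in WT, 6.37 in VEMD3, 4.81 in VEMD6, 3.66 in VEMD2 and 2.78 in VEMD8. Gzma, a granzyme of cytotoxic lymphocytes, ran from 94.8 in VEMD4 and 85.9 in WT down to 40.4 in VEMD8. Like Hbegf, both were highest in VEMD4 and lowest in VEMD8, and so was Naa80, at 9.26 and 4.81 FPKM. These genes were chosen for their likeness to Hbegf, so the shared order follows from the choice. The cells that hold the Hbegf RNA were not tested.

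Markers of other cells were read beside these values, since leukocytes and stromal cells also make EGF family ligands. The summed level of 15 leukocyte markers was 29.7 FPKM in VEMD4, 20.6 in VEMD3, 18.3 in WT, 16.4 in VEMD2, 14.2 in VEMD6 and 12.9 in VEMD8. It was highest in VEMD4, and was below WT in VEMD6, where Areg was highest. Foxp3, of regulatory T cells, and Gata3, shared by several lymphoid cells, were at or below 0.14 FPKM in every library. Adgre1, a macrophage marker, was listed at 0 in WT, VEMD2 and VEMD8 and did not go over 0.13. Lyz2, Csf1r and Laptm5 were highest in VEMD4, at 2.1 FPKM against 0.68 in WT, 0.42 against 0.03 and 6.48 against 2.32. Of these, Lyz2 and Csf1r did not reach a mean of 1 FPKM. Ptprc, Cd3e, Cd8a and Coro1a did reach it and were also highest in VEMD4. They were at 2.8, 4.39, 6.49 and 4.6 FPKM there, against 1.65, 2.54, 3.94 and 3.17 in WT. Itgam, a myeloid marker that reached it as well, went the other way, at 3.48 FPKM in WT, its highest, and 1.44 in VEMD4. Laptm5 was the only one of the 6 tested leukocyte markers to pass 2-fold, and did so in VEMD4. The sum of 14 stromal markers was 3.64 FPKM in WT and between 1.75 in VEMD6 and 7.88 in VEMD3, and Vim made up 3.02 FPKM of it in WT, 6.31 in VEMD3 and 2.42 of 4.95 in VEMD4. The fibroblast markers Pdgfra and Col1a1 did not go over 0.01 and 0.08, but 3 others were highest in VEMD4: Dcn was at 1.3 FPKM there against 0.09 in WT, Col3a1 at 0.29 against 0.03 and Col1a2 at 0.15 against a listed 0. VEMD4 is also the library in which Ereg, Hbegf, Tgfa, Btc, Egfr and Errfi1 were highest. The 8 epithelial markers summed to 7128 FPKM in WT and to 5576 to 7703 in the knockout libraries. They did not move together, as 2 were above WT and 3 below it in all 5 knockout libraries. Krt18 had log2 ratios of 1.75 and 1.77 in VEMD3 and VEMD4. Krt20 had -1.04 and -1.33 in VEMD2 and VEMD3, and 0.91 in VEMD6. Enterocyte markers summed to 20220 FPKM in VEMD6 and 3256 in VEMD3, with WT between them at 10670. Of these 11 markers, all 11 were 2-fold lower in VEMD3, while in VEMD6 3 were higher and 2 lower. The 2 were Lct and Treh, which were 2-fold lower in all 5 knockout libraries. The part of the leukocyte, enterocyte and other cell shares in the ligand values was not tested.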

How the data were processed

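RNA of 6 crypt libraries was sequenced on a BGI-500 instrument, per the labels. The submitters' processing notes name edgeR, featureCounts and HISAT2 beside the builds GRCm38 and mm10, with no versions or roles. The authors deposited FPKM values rounded to 2 decimals, per the file headers. Of 20718 lines, 16958 hold values and 16916 of these were named through RefSeq gene identifiers of GRCm38. The 2 columns with values per sample in a table of repeats were not used. The members and gene lists were chosen with earlier results of these data known.

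Log2 ratios to WT used a pseudocount of 1 FPKM, genes were counted when their mean reached 1 FPKM, and 2-fold was the threshold. Named genes are all members, up to 4 per pathway list by their largest ratio, the 3 nearest genes to each ligand by ratios among genes whose mean reached 5 FPKM, and tested genes within 500 kb of Areg; not all are printed, and exceptions are said. Depth was estimated from genes with 1 GENCODE M21 transcript of 1000 to 2000 bases and values under 0.4 FPKM, as the step that best makes FPKM times length whole. Member intervals used the shortest transcript. Promoter letters were searched for all members with a RefSeq promoter, more than the Areg and Ereg planned, and proteins were not used here. The steps were tested on simulated data. Python 3.11.15, numpy 2.4.6 and scipy 1.17.1 were used. Alternatives were pseudocounts of 0.1 and 5, 2 rescalings, filters of 0 and 5 FPKM and leaving out each knockout library.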

Additional observations from a re-analysis of the deposited data

How the results depend on the processing

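No paired analysis was possible because every group is a single library. No member was 2-fold lower than WT under any alternative, and the member counts were within 1.5 times of those reported under both rescalings, a pseudocount of 0.1 FPKM and no filter. With a pseudocount of 5 FPKM, 1 member was higher in VEMD2, 1 in VEMD8 and 1 in all 5 libraries, since Ereg fell short at 0.69, 0.97 and 0.47 in VEMD2, VEMD3 and VEMD8, and Errfi1 at 0.90 in VEMD8. With a filter at a mean of 5 FPKM, which drops Ereg, 1 member was higher in VEMD2 and 1 in all 5. Leaving out each knockout library in turn gave 2 members higher and 0 lower in all the rest; since a rule over fewer libraries cannot lower the count, this says only that no further member passed.

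Of the other pathway genes, a pseudocount of 0.1 gave 8 higher in VEMD2, 8 higher in VEMD6, and 1, 5 and 4 lower in VEMD3, VEMD6 and VEMD8. A pseudocount of 5 gave 3, 3, 6, 2 and 3 higher from VEMD2 to VEMD8 and 0 lower in VEMD4. A mean of at least 5 FPKM gave 3, 5 and 7 higher in VEMD2, VEMD3 and VEMD4. Rescaling to the median gene gave 8 higher in VEMD6 and 2 lower in VEMD3, and rescaling to the same summed FPKM gave 8 higher in VEMD6 and 1 lower in VEMD8. With a single library per group, no spread between mice bounds any of these values.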
